A study of Danio rerio with 3 samples.

Results

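The myogenic regulatory factors and their Mef2 partners were followed in zebrafish embryos after a cortisol bath of the eggs. The members are the genes myog, myf5, myod1, myf6, mef2d and mef2ca. A probe was taken as a member where the gene name in the array files was one of these 6 symbols or an older synonym of one, which gave 15 of 43603 probes and 6 of 27217 genes. myf5 and mef2ca had 4 probes each, mef2d had 3, myf6 had 2, and myog and myod1 had 1 each. The genes were chosen partly by their ratios on these arrays, among them the low values of myog and myf5 at 24 hours post fertilisation (hpf), so all values below are descriptions and none is a test.

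Myogenic regulatory factors are basic helix-loop-helix transcription factors that switch mesodermal cells to the skeletal muscle fate. In zebrafish, myf5 and myod1 act early, in paraxial mesoderm and the adaxial cells beside the notochord, myog acts later in cells that differentiate, and myf6 (also called mrf4) is the member expressed latest in differentiating fibres. The factors work as dimers with E proteins and are held back by Id proteins. Mef2 proteins are MADS-box factors that work together with them on genes of the contractile apparatus. In zebrafish, mef2d and mef2ca together are needed for thick filament assembly in muscle fibres, and mef2ca also acts in the heart and in the neural crest of the jaw.

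Wild-type embryos were exposed from 0 to 2 hpf to cortisol at 13.8 µM (5 mg/L), or to the ethanol vehicle at 2 ml per 1 L of fish water, raised at 28.5 °C and fixed at 5, 12 or 24 hpf. The parent fish came from a pet shop, per the labels. Each stage has 1 set of values from 2-colour Agilent arrays, with cortisol RNA in red (Cy5) and vehicle RNA in green (Cy3) and no dye swap. The design text gives 4 replicates for the 5 hpf stage, 3 for 12 hpf and 1 experiment for 24 hpf, but with 1 set of values per stage no spread between them can be given. A pixel median of 1 array is a multiple of 0.5. Of the vehicle signals of all spots other than controls, 27.4% at 5 hpf, 39.9% at 12 hpf and 99.5% at 24 hpf were, so the values at 5 and 12 hpf appear to be means over arrays and those at 24 hpf to come from 1 array. RNA came from whole embryos, so fewer cells of a type and less RNA per cell cannot be told apart, and a probe is no replicate of another probe. The stages differ by array as well as by age, so changes between stages are descriptions only.

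The cortisol channel was dim at the later stages. Net of local background, the 95th percentile reached 7318 in cortisol and 3710 in vehicle at 5 hpf, but 330 in cortisol and 4350 in vehicle at 12 hpf. At 24 hpf it reached 290 in cortisol and 1978 in vehicle. Scanner signals of the 2 dyes are therefore not on 1 scale, and only normalized log2 signals and log2 ratios of cortisol over vehicle are compared below. A probe counts as measured in a channel if it was brighter there than 153 negative controls by 2 of their SDs over their mean. The scanner ratio is the log2 ratio computed here from the scanner signals, and the deposited ratio is the one in the authors' deposited table, rescaled from log10 to log2. Different probes of 1 gene differed with a pooled SD of 0.21, 0.34 and 0.33 in the scanner ratio at 5, 12 and 24 hpf, which is the only spread available. That SD describes single probes within 1 set of values. It gives no error for a gene's mean or for the difference between treatments. Of the 15 member probes, 9 were measured in both channels at 5 hpf, 11 at 12 hpf and 10 at 24 hpf. All 6 skeletal muscle markers were measured in both channels at 24 hpf.

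By the scanner ratio at 24 hpf, myog and myf5 were lower and mef2ca was higher in cortisol-treated embryos. In that ratio myod1, myf6 and mef2d lay closer to 0. The scanner ratio was -1.25 for myog, -1.04 for myf5, -0.32 for myod1, -0.19 for myf6, -0.17 for mef2d and 0.68 for mef2ca, as means over measured probes. Hence 2 of 6 genes were at least 2-fold lower, against 0.787% of the 12321 genes measured at that stage, and 0 were at least 2-fold higher, against 0.325%. Because the low values of myog and myf5 led to their choice, nothing is read from that count. Counted by probe, 2 of 10 were at least 2-fold lower (background 1.49%) and 1 was at least 2-fold higher (0.372%). In the deposited ratio 1 gene was at least 2-fold lower, myf5, where 2.6% of all genes were, and 0 were at least 2-fold higher, where 3.64% were. By the deposited ratio myf6, at -0.72, lay further from 0 than myog at -0.33. With local background subtracted myf6 was at -1.49 and myog at -1.44.

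**Figure D1:**
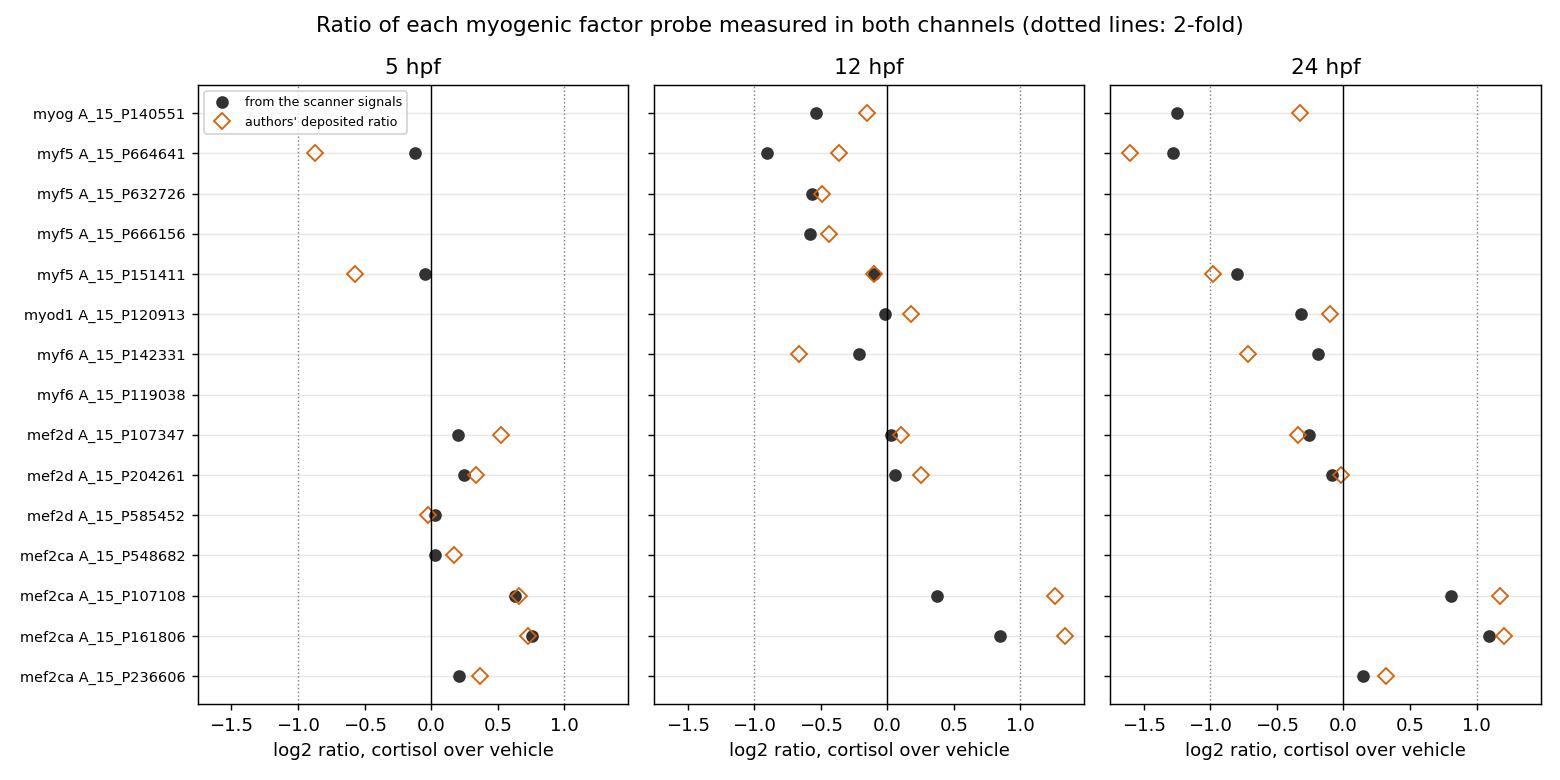
Log2 ratio of cortisol over vehicle (x axis) for each myogenic factor probe (rows) at 5, 12 and 24 hpf, computed from the scanner signals (filled circles) or as the authors deposited it (open diamonds); only probes measured in both channels have points, and dotted lines mark 2-fold. At 24 hpf the points of myf5 lie at or below -0.80 and those of the mef2ca probes A_15_P107108 and A_15_P161806 at or above 0.81 under both ratios, while for myog the ratios lie apart at -1.25 and -0.33.

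Among the early-acting factors, myf5 had its peak at 12 hpf. Its probe A_15_P664641 had a normalized log2 signal of 6.03, 10.86 and 8.47 in cortisol at 5, 12 and 24 hpf, against 6.15, 11.77 and 9.75 in vehicle. Probe A_15_P151411 of the same gene had 6.08, 11.45 and 9.00 in cortisol, against 6.13, 11.54 and 9.80 in vehicle. In either treatment the signal of each probe was highest at 12 hpf, and at every stage it was lower in cortisol-treated embryos. From 12 to 24 hpf the log2 signal of A_15_P664641 changed by -2.39 in cortisol and -2.02 in vehicle, and that of A_15_P151411 by -2.44 and -1.74.

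The other pair of myf5 probes, A_15_P632726 and A_15_P666156, was not measured in either channel at 5 hpf. At 12 hpf they had log2 signals of 8.25 and 8.77 in cortisol, against 8.82 and 9.36 in vehicle. At 24 hpf they were measured in vehicle only. Their cortisol signals, which were not above the negative controls, lay 1.19-fold and 1.29-fold lower than vehicle, and these sizes are not firm. From 12 to 24 hpf their log2 signals changed by -1.78 and -1.91 in vehicle, and by -1.47 and -1.70 in cortisol. Unlike in the first pair, the fall was smaller in cortisol, but it ends at cortisol signals that were not measured.

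All 4 myf5 probes were below 0 at 12 hpf, but by different amounts. The scanner ratios were -0.91 and -0.10 for A_15_P664641 and A_15_P151411, and -0.57 and -0.58 for A_15_P632726 and A_15_P666156. The gene averaged -0.54 ± 0.33 (SD over 4 probes), and -0.35 in the deposited ratio. At 24 hpf the first 2 probes were at -1.28 and -0.80 in the scanner ratio and at -1.60 and -0.98 in the deposited one, so that the low value of myf5 was at least as large in the authors' deposited ratio. Its gene value in the scanner ratio ranked 81 from the lowest among 12321 genes, but the gene was chosen for that low value. At 5 hpf both measured probes were barely above the negative controls, at 137.4 and 138.9 in cortisol and 63.6 and 61.9 in vehicle. There the scanner ratios were -0.12 and -0.05 and the deposited ones -0.87 and -0.57, so the size at that stage is not settled.

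myod1, the other early-acting factor, differed little in the scanner and the deposited ratio. Its single probe, A_15_P120913, was not measured in either channel at 5 hpf and had log2 signals of 9.45 and 10.08 in cortisol at 12 and 24 hpf, against 9.46 and 10.39 in vehicle. The scanner ratio was -0.02 at 12 hpf and -0.32 at 24 hpf, and the deposited one 0.18 and -0.10. At both stages the scanner ratio is within the SD between probes of 1 gene, which is no error for the difference between treatments. At 12 hpf the sign depended on the ratio used.

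myog, the differentiation factor, had its highest signal at 24 hpf. Its single probe, A_15_P140551, was not measured in either channel at 5 hpf. It reached log2 signals of 7.24 and 9.31 in cortisol at 12 and 24 hpf, against 7.78 and 10.56 in vehicle. The increase over those hours was 2.07 in cortisol and 2.78 in vehicle on the log2 scale, and 3.38 and 3.60 in the authors' deposited processed signals. The scanner ratio was -0.54 at 12 hpf and -1.25 at 24 hpf, where it ranked 33 from the lowest among 12321 genes. Because that low value led to the choice of the gene, nothing is read from the rank. With local background subtracted the order of the stages turned, at -1.96 at 12 hpf and -1.44 at 24 hpf.

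The authors' deposited ratio did not place myog so low. It was -0.15 at 12 hpf and -0.33 at 24 hpf, where the probe ranked 4077 from the lowest among 18831 probes. The scanner signals at 24 hpf were 214 in cortisol over a local background of 132, and 1595 in vehicle over 48, which leaves 82 and 1547 after subtraction. The authors' processed signals were 2680 in cortisol and 3360 in vehicle, so 1 unit of net cortisol signal corresponded to 32.7 processed units. Among 48 other probes at 24 hpf with net signals within 1.25 times those of myog in each channel, this factor had a median of 29.9 and ranged from 10.9 to 46.5, and the deposited ratio had a median of -0.29. At 12 hpf the factor of myog was 44.3, against a median of 25.0 over 30 such probes, of which 1 lay higher. Its deposited ratio of -0.15 there stood beside a median of -0.96, and 28 of the 30 were lower. The reason was not tested. At 12 hpf myog had a net cortisol signal of 5.8, from 141 over a background of 135.2, so its scanner ratio there rests on a dim spot, and with spots of raised local background kept in the array's fit it was -0.09.

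**Figure D2:**
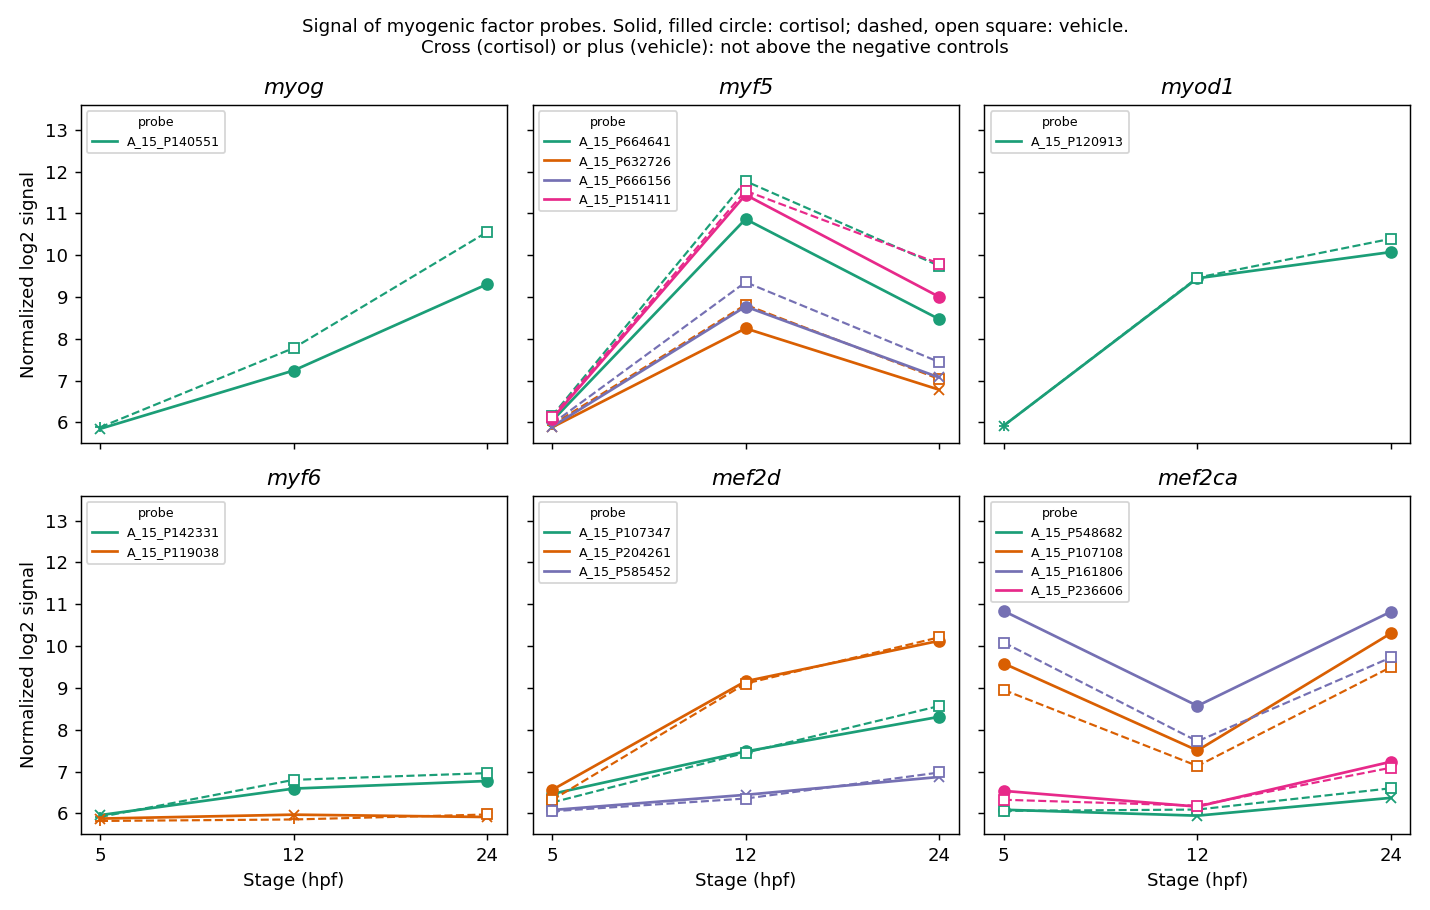
Normalized log2 signal (y axis) of every myogenic factor probe at 5, 12 and 24 hpf (x axis), 1 panel per gene and 1 colour per probe, with cortisol as solid lines and filled circles and vehicle as dashed lines and open squares; crosses and plus signs mark values not above the negative controls. The cortisol line of myog ends at 9.31 and its vehicle line at 10.56, myf5 peaks at 12 hpf, and the mef2ca probes A_15_P161806 and A_15_P107108 are lowest at 12 hpf with cortisol above vehicle at each stage.

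For myf6, the cortisol signals of both probes stayed close to the negative controls. Probe A_15_P142331 had log2 signals of 6.59 and 6.77 in cortisol at 12 and 24 hpf, against 6.80 and 6.96 in vehicle. Its cortisol signals were 137 and 138 on the scanner, 1.7 and 5 units over local background, so that its scanner ratios of -0.21 and -0.19 and its deposited ratios of -0.66 and -0.72 have no firm size. Over the settings other than median centring, the gene ranged from -2.82 to 0.01 at 12 hpf. Probe A_15_P119038 was not measured at 5 or 12 hpf, and at 24 hpf it was measured in vehicle only, with 58 on the scanner. In the zebrafish annotation myf6 and myf5 are on the same chromosome with 0 protein-coding genes between them.

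The Mef2 gene mef2d had a higher signal at each later stage in both treatments. Its probe A_15_P204261 had log2 signals of 6.56, 9.16 and 10.13 in cortisol at 5, 12 and 24 hpf, against 6.31, 9.10 and 10.21 in vehicle. Probe A_15_P107347 had 6.46, 7.48 and 8.31 in cortisol, against 6.26, 7.45 and 8.57 in vehicle. Scanner ratios of the gene were 0.16, 0.04 and -0.17, and deposited ratios 0.28, 0.18 and -0.18. None of the scanner ratios exceeds the SD between probes of 1 gene, which is no error for the difference between treatments. That SD was taken from scanner ratios and gives no measure for the deposited ratio, whose 3 probes at 5 hpf ran from -0.03 to 0.53. The third probe, A_15_P585452, had a scanner ratio of 0.03 at 5 hpf and was measured in vehicle only at 12 and 24 hpf.

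mef2ca was the only member gene with a ratio above 0 at all 3 stages, in the scanner and in the deposited ratio. Its probe A_15_P161806 had log2 signals of 10.84, 8.57 and 10.83 in cortisol at 5, 12 and 24 hpf, against 10.09, 7.72 and 9.73 in vehicle. Probe A_15_P107108 had 9.58, 7.50 and 10.31 in cortisol, against 8.95, 7.13 and 9.50 in vehicle. Both probes were well above the negative controls at 5 hpf, when myog, myod1 and myf6 were not measured, and both had their lowest signal at 12 hpf.

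The scanner ratios of A_15_P161806 were 0.75, 0.85 and 1.1 at 5, 12 and 24 hpf, and its deposited ratios 0.72, 1.33 and 1.2. For A_15_P107108 the scanner ratios were 0.63, 0.37 and 0.81 and the deposited ones 0.66, 1.26 and 1.17. All of these values were above 0, and at 12 hpf the deposited ones were the larger. In the scanner ratio A_15_P161806, the highest of the mef2ca probes, ranked 510 from the highest among 31402 probes at 5 hpf. It ranked 179 among 19758 at 12 hpf and 50 among 18831 at 24 hpf. In the deposited ratio its ranks from the highest were 1813, 267 and 481. With spots of raised local background kept in the array's fit, the scanner ratios at 12 hpf were 0.17 for A_15_P161806 and 0.05 for A_15_P107108. Both deposited values at 12 hpf were past 2-fold, as were 2.55% of all probes in that direction. At 24 hpf the deposited ratio again had these 2 probes at least 2-fold higher, where 3.71% of all probes were.

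The other pair of mef2ca probes had dim signals and smaller values. Probe A_15_P236606 had scanner ratios of 0.21 at 5 hpf and 0.14 at 24 hpf, with deposited ratios of 0.37 and 0.32, and was measured in vehicle only at 12 hpf. Probe A_15_P548682 had 0.03 at 5 hpf and was measured in vehicle only afterwards. Where measured in vehicle only, both probes had scanner ratios below 0. These were -0.02 for A_15_P236606 at 12 hpf, and -0.15 and -0.23 for A_15_P548682 at 12 and 24 hpf. The deposited ratios there were -0.40, 0 and 1.13, and these sizes are not firm. Averaged over the probes measured at each stage, the gene was at 0.41 ± 0.34 (SD over 4 probes), 0.61 ± 0.34 (2 probes) and 0.68 ± 0.49 (3 probes), and the mean changes with which probes are counted. Without a filter on dim probes the gene was at 0.26 at 12 hpf and 0.45 at 24 hpf. The files do not say which part of the transcript a probe binds.

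**Figure D3:**
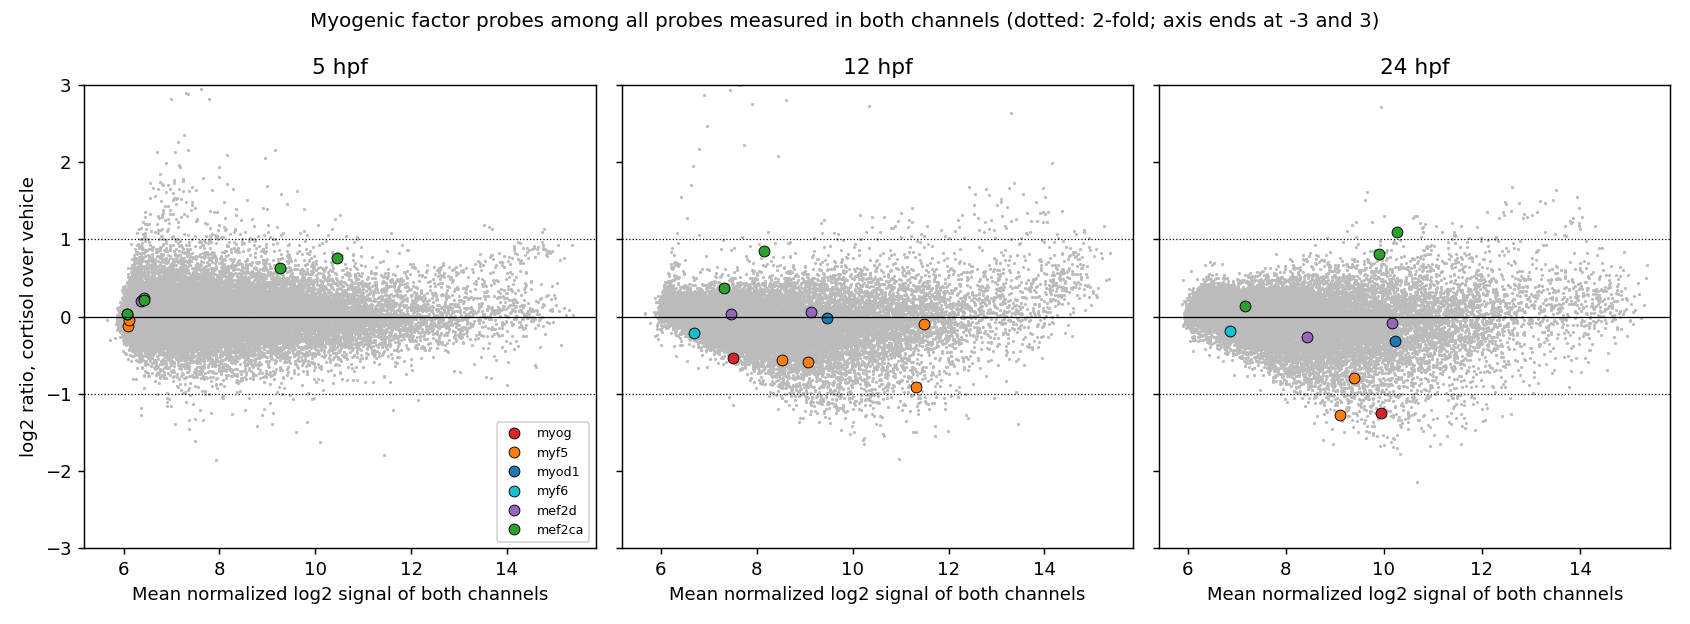
Log2 ratio of cortisol over vehicle (y axis) against the mean normalized log2 signal of both channels (x axis) for all probes measured in both channels (grey) and the myogenic factor probes (coloured by gene) at 5, 12 and 24 hpf; dotted lines mark 2-fold. At 24 hpf myog at -1.25 and the lower myf5 probe at -1.28 lie near the lower edge of the cloud at their signal and mef2ca at 1.1 and 0.81 near its upper edge; 7 probes at 5 hpf and 22 at 12 hpf, none of them a member, lie beyond the axis, which ends at -3 and 3.

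At 12 hpf 0 of 6 member genes were past 2-fold in the scanner ratio, against 0.913% of 12596 genes in either direction. In the deposited ratio 1 was, mef2ca at 1.30, where 2.79% of genes were at least 2-fold higher. myog and myf5 were both at -0.54 at that stage, and mef2ca stood at 0.61. At 5 hpf only myf5, mef2d and mef2ca had a measured probe, and 0 of these 3 genes were past 2-fold, against 0.716% of 19278 genes. The direction of myf5, below 0, and of mef2ca, above 0, was the same at the 3 stages in both ratios, and no test of this can be made with 1 set of values per stage.

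Under median centring, single genes shifted by different amounts, and the median of all genes was 0.16, -1.72 and -1.21 at 5, 12 and 24 hpf. Measured against those medians, mef2ca was at 0.48, 0.78 and 0.36, myf5 at -0.31, -1.41 and -1.59, and myog at -0.20 and -1.99 at 12 and 24 hpf. Before that subtraction mef2ca was at -0.94 and -0.84 at 12 and 24 hpf. Measured against the medians, these 3 genes were on the same side of 0 as reported. In contrast, myf6 changed sides, to 1.04 and 0.66 at 12 and 24 hpf, and so did mef2d at 12 hpf, to -0.10. By the same measure myod1 was at -0.81 and -1.14 at 12 and 24 hpf, and mef2d at -0.68 at 24 hpf. Those values are further from 0 than as reported.

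Genes acting before the myogenic factors were mostly below 0 at 24 hpf. Of 22 measured genes of that list, 17 had a scanner ratio below 0 and 5 above, with a median of -0.14 beside -0.02 over all genes, of which 53.7% were below 0. In the scanner ratio 1 was at least 2-fold lower (0.787% of all genes), and in the deposited ratio 5 were (2.6%). The lowest was msgn1, a basic helix-loop-helix gene of the presomitic mesoderm, at -1.05 over 5 probes between -1.25 and -0.77. The somite homeobox gene meox1 was at -0.72 and the presomitic T-box gene tbx6 at -0.71. Their deposited ratios were -1.39, -0.86 and -1.44, and the list's median in the deposited ratio was -0.40. Under median centring the list's median was -1.26, close to the -1.21 over all genes. These genes, like myf5, are ones whose vehicle signal was lower at 24 than at 12 hpf, by a log2 change of -1.58 for msgn1, -1.18 for meox1 and -1.36 for tbx6.

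At 5 hpf the same list was also mostly below 0, with 15 of 18 measured genes and a median of -0.13, where 46.2% of all genes were below 0 and their median was 0.01. In the deposited ratio the list's median was -0.54 and 4 genes were at least 2-fold lower, as were 1.96% of all genes. Mean signals of those 4 were dim, from 133.1 to 152.6 in cortisol and 62.1 to 79.8 in vehicle, over limits of 126.6 and 51.4. Their scanner ratios were between -0.31 and -0.14, so their size at that stage is not settled. The mesoderm T-box gene tbxta was at -0.66, msgn1 at -0.57 and the forkhead gene foxc1a at -0.43. At 12 hpf 13 of 22 were below 0 and 9 above, near the 56.0% of all genes that were below 0. The median changed sign between the ratios, at -0.09 in the scanner ratio and 0.02 in the deposited one. There tbxta was at 0.55, and the myogenic cofactors six1b and eya2, which act on muscle precursors, were at -0.47 and -0.41.

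E proteins, Id proteins and other partners or antagonists lay around 0 in the scanner ratio. At 24 hpf 7 of 14 were above 0 and 7 below, the median was -0.01, and none was past 2-fold. In the deposited ratio 10 were above 0 and 4 below, with a median of 0.10. Over all genes, 53.7% were below 0 in the scanner ratio and 49.2% in the deposited one. The Id gene id1, whose product keeps E proteins from the myogenic factors, was lowest at -0.49, with its 2 probes at -0.77 and -0.22. At 5 hpf the median was -0.01 over 12 genes and at 12 hpf -0.09 over 10.

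Of the other Mef2 genes, 3 of 4 listed were on the array, and mef2b and mef2aa were measured at all stages. The scanner ratios of mef2b were 0.38, 0.01 and -0.19 at 5, 12 and 24 hpf, and those of mef2aa 0.19, -0.16 and 0.03. mef2cb, the paralogue of mef2ca, was measured at 5 hpf only, at 0.09.

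Genes of muscle differentiation and fusion were split in the scanner ratio but not in the deposited one. At 24 hpf 9 of 18 were above 0 and 9 below, with a median of 0.01. In the deposited ratio 15 were above and 3 below, with a median of 0.19. Over all genes, 53.7% were below 0 in the scanner ratio and 49.2% in the deposited one. Highest was vgll2b, a cofactor of TEAD factors in muscle, at 0.83 (1.08 in the deposited ratio), and lowest was cav3, the muscle caveolin gene, at -0.49 (-0.12). At 12 hpf 9 of 12 were below 0, where 56.0% of all genes were, and 7 in the deposited ratio, where 59.4% were. The myosin chaperone gene hsp90aa1.1 was at -0.68 in the scanner ratio but -0.16 in the deposited one. The creatine kinase gene ckma was at 0.46, and at 4.91 in the deposited ratio, with a vehicle signal of 59.8 close to background.

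Contractile protein genes lay on the other side of 0 from myog and myf5 at 24 hpf, except under median centring of the ratios. Of 25 measured genes, 19 were above 0 and 6 below, where 53.7% of all genes were below 0. The list's median was 0.24 beside -0.02 over all genes, and 0.34 in the deposited ratio beside 0.00 over all genes. The fast myosin heavy chain gene myhz1.1 was at 0.65 over 6 probes between 0.39 and 1.21, the fast myosin light chain gene mylpfa at 0.61 over 3 probes between 0.49 and 0.82, and the myosin-binding gene mybphb at 0.61. None reached 2-fold. With each array's ratios centred on their median in place of loess, which leaves the dependence on signal in place, the list's median was -1.94 beside -1.21 over all genes. At 12 hpf 6 of 13 were above 0 with a median of -0.07, and at 5 hpf 12 of 19 with a median of 0.01 (0.20 in the deposited ratio). Of all genes, 56.0% at 12 hpf and 46.2% at 5 hpf were below 0. At 5 hpf 1 gene, the tropomyosin gene tpm2, was at least 2-fold higher in the scanner ratio, at 1.03 (0.576% of all genes). In the deposited ratio 4 were (3.06%), tpm2 among them. The others of these had vehicle signals from 52.1 to 59.4, close to the limit of 51.4, and scanner ratios from 0.21 to 0.72. Markers of other tissues had medians of 0.10 (notochord), -0.02 (neural), -0.11 (epidermis), 0.16 (blood) and 0.00 (heart) at 24 hpf. In the deposited ratio the epidermis and neural medians were 0.17 and 0.14, on the other side of 0, and the part of these tissues in the values above was not tested.

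**Figure D4:**
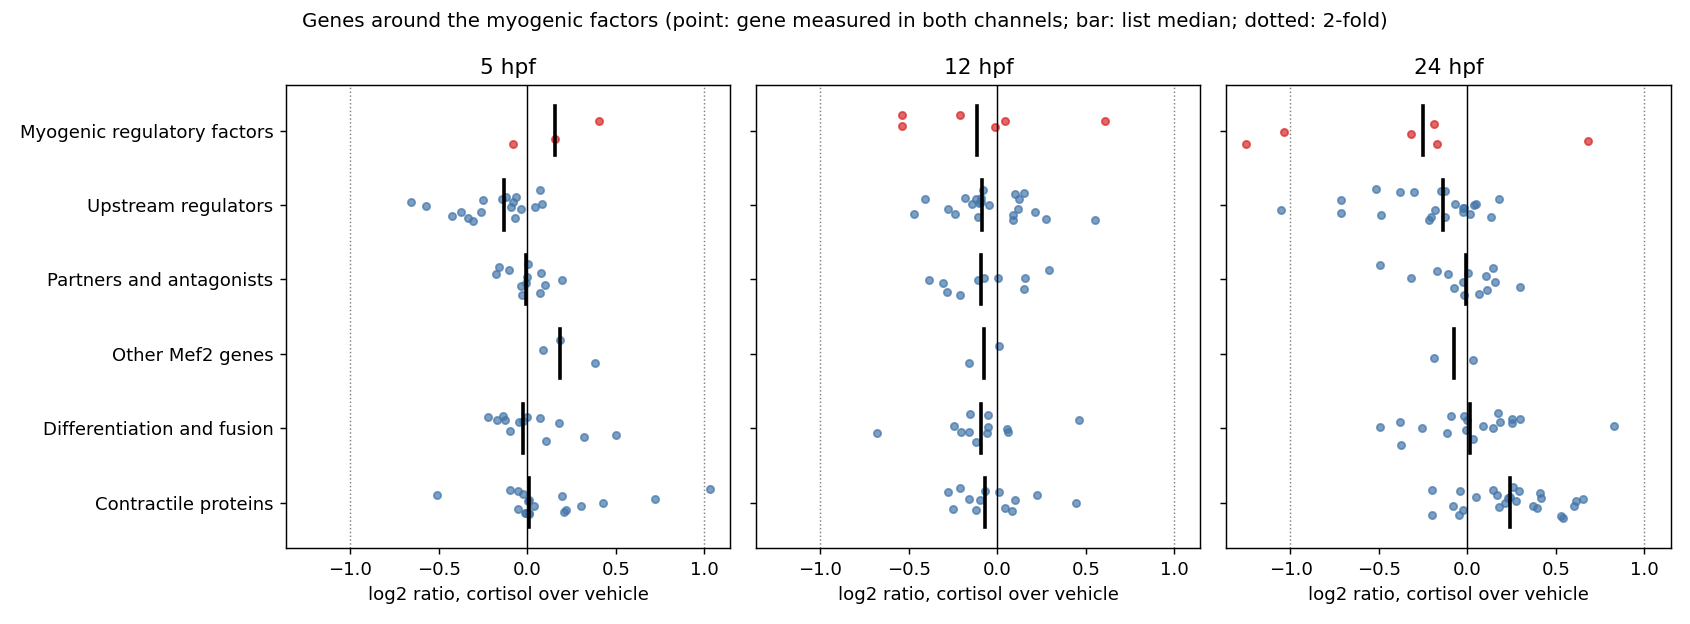
Log2 ratio of cortisol over vehicle (x axis) of each measured gene (points) in the myogenic factor list (red) and 5 lists of genes around it (blue) at 5, 12 and 24 hpf, with the list median as a bar and 2-fold as dotted lines. At 24 hpf the medians are 0.24 for contractile genes, -0.14 for upstream regulators and -0.25 for myogenic factors. Among the factors mef2ca alone is above 0. Under median centring, not drawn, the contractile and upstream medians are -1.94 and -1.26, beside -1.21 over all genes.

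The genes whose 6 normalized log2 signals, cortisol and vehicle at 3 stages and each centred on its own mean, were closest to those of myog among 7557 genes were nhlh2, actc2, ascl1a, slc2a11b and seraf, at Euclidean distances from 0.65 to 0.95 log2 units. nhlh2 and ascl1a are neural basic helix-loop-helix genes and actc2 is an actin gene. In the scanner ratio at 24 hpf nhlh2 was at -0.94, but in the deposited ratio at 0.28. There actc2 was at -0.48 in the scanner ratio and -0.12 in the deposited one, and ascl1a at -0.49 and -0.25. slc2a11b was at -0.34 and 0.49, and seraf at 0.00 and 0.14. Closest to myf5 were egr2b, MGC174155, meox1, six7 and pck2, at distances from 0.62 to 0.88. Of these, meox1 is a somite gene and egr2b a hindbrain gene, and all 5 had scanner ratios below 0 at 24 hpf, from -1.60 for six7 to -0.55 for egr2b. The distance uses the 24 hpf signals, so these ratios follow in part from how the genes were found. For myog the 5 hpf signals were not above the negative controls in either channel, and 4 of its 5 nearest genes had no measured ratio at 5 hpf, so that stage compares background. Both rankings are descriptions over 6 values from 3 sets of arrays.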

How the data were processed

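Per the labels' protocols, 200 ng of total RNA per sample was labelled with Cy5 for cortisol and Cy3 for vehicle. Per the file headers, the authors deposited the intensity of each spot (pixel median) and of its local background, and separately processed intensity values with a log10 ratio of Cy5 over Cy3, rescaled here to log2. Agilent Feature Extraction is named in the submitters' processing notes. The software version and genome build are not given in the sources used here.

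Background was corrected with limma's normexp (offset 50), leaving out spots whose local background was more than 2-fold above the median of the array (12, 9 and 0 spots at 5, 12 and 24 hpf), and ratios were normalized by loess with 1417 control spots at weight 0 (limma 3.58.1, R 4.3.3). Channel signals were then scaled between arrays (Aquantile). Repeat spots gave 1 mean per probe, and a gene's value is the mean of its measured probes. Across spots measured in both channels, the ratio used here correlated with the deposited one at 0.8, 0.46 and 0.52 at 5, 12 and 24 hpf. Of 43603 probes, 25258 were named by accession, 2766 by symbol and 1675 by synonym through the RefSeq table of GRCz12tu, and 13904 kept the name in the file.

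There is 1 set of values per stage and hence no test. Genes at least 2-fold apart are counted by size. Precision is limited by how few arrays there are. Alternatives were the deposited ratio, other background corrections and normalizations, other filters on dim probes and the median over probes. All 6 members are described. Of each of 5 lists, which with 6 marker lists held 126 symbols (116 on the array), up to 3 genes per stage with the largest absolute ratio could be named, and 5 genes most like myog and myf5. Members and lists were chosen with earlier results of these data known. The fitting steps were run in R on simulated arrays with planted folds, and how much of those folds was recovered is not given here. Counts and lists were computed in Python 3.11.15 (pandas 2.3.3, numpy 2.4.6).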

Additional observations from a re-analysis of the deposited data

Results flagged for a closer look

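The sign of mef2d differed between stages. Its scanner ratio was 0.16 at 5 hpf and 0.04 at 12 hpf but -0.17 at 24 hpf, so it was above 0 at the earlier stages and below 0 at the latest. Each stage has 1 set of values, so this difference was not tested. Each of these scanner ratios is within the SD between probes of 1 gene, which is no error for the difference between treatments. In the deposited ratio the signs were the same, at 0.28, 0.18 and -0.18.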

How the results depend on the processing

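No paired analysis was possible because each stage has 1 set of values and the result comes from no test. The number of member genes past 2-fold at 24 hpf was 2 as reported. It was 1 with the deposited ratio, without background correction or with loess on measured probes. With both channels over the array median or without a filter on dim probes it was also 1. It was 3 with local background subtracted and 4 under median centring. At 12 hpf, 0 as reported, it was 1 with the deposited ratio, 3 with local background subtracted and 4 under median centring. Member probes past 2-fold were 0 of 9 at 5 hpf and 2 under median centring. At 12 hpf they were 0 of 11 as reported, 2 with the deposited ratio, 4 with subtraction, 1 with offset 16 and 9 under median centring. At 24 hpf they were 3 of 10 (1 higher and 2 lower), but 2 without background correction, 5 with subtraction and 7 under median centring. With the deposited ratio they were also 3, but 2 higher and 1 lower. The share over all probes was not counted under most of these settings, so nothing is read from the probe counts. Under median centring the mef2ca probe A_15_P161806 at 24 hpf changed sign, to -0.94, but stayed above the median of -1.21 over all genes. At 24 hpf A_15_P107108 and A_15_P236606 also went below 0, to -1.14 and -0.45. At 12 hpf A_15_P161806 and A_15_P107108 were at -1.05 and -0.83, beside a median of -1.72. Over all genes, 138 of 19278, 115 of 12596 and 137 of 12321 were past 2-fold at 5, 12 and 24 hpf. These counts were 967, 713 and 768 with the deposited ratio, 776, 1421 and 1712 with subtraction, 257, 210 and 285 with offset 16, and 439, 9167 and 7331 under median centring. The split into higher and lower genes was 111 and 27, 74 and 41, and 40 and 97 as reported, against 589 and 378, 352 and 361, and 448 and 320 with the deposited ratio, and 429 and 10, 21 and 9146, and 0 and 7331 under median centring. With spots of raised local background kept 67 genes at 5 hpf and 273 at 12 hpf were past 2-fold (243 higher and 30 lower at 12 hpf), and without a filter on dim probes 87 of 27217 at 24 hpf. Also at 24 hpf, 92 of 12321 were past 2-fold without background correction and 104 of 12321 with loess on measured probes. With both channels over the array median 130 of 12239 were. The cause was not tested.

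Over the settings other than median centring, myog ranged from -1.96 to -0.09 at 12 hpf and from -1.44 to -0.33 at 24 hpf, myf5 from -1.41 to -0.67 at 24 hpf, and mef2ca from 0.11 to 1.33 at 12 hpf and from 0.45 to 0.99 at 24 hpf, all on 1 side of 0. The values nearest 0 at 12 hpf for myog and mef2ca came with spots of raised local background kept. The array median of the cortisol channel was 134 at 12 hpf and 135 at 24 hpf, below the limits of 134.7 and 136.9 set by the negative controls, so that filter was not stricter in cortisol. The counts by probe were added after seeing the data. Low cortisol signal over background limits the ratios of dim probes at 12 and 24 hpf.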

Other observations

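Between 12 and 24 hpf the signals of the gene lists around the myogenic factors changed in different directions. Age and array differ together between these stages, so their parts in the changes cannot be told apart. For 13 contractile protein genes measured at both stages, the log2 signal changed by a median of 4.13 in cortisol-treated embryos and 3.60 in vehicle embryos, and all 13 were higher at 24 hpf in both. For 22 genes acting before the myogenic factors the median change was -0.79 in cortisol and -0.63 in vehicle. The 13 contractile genes leave out those not measured at 12 hpf, so they do not stand for the 25 measured at 24 hpf.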
